A study of Mus musculus with 446 samples.

Results

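Liver and skeletal muscle of the same mouse were compared here, gene by gene, to see which transcripts went up and down together in both organs across genetically diverse animals. The libraries were taken in pairs: a liver and a muscle column with the same mouse number, both with at least 8000 genes at 1 TPM or more (transcript abundance per gene length, scaled to a fixed total in each library), and with mouse 80 left out. These conditions kept 244 of the 446 libraries in the series, from 59 of the 75 high-fat mice and 63 of the 74 control mice that had both tissues. Of the 47643 genes in the tables, 5934 had a median scaled TPM of at least 5 in both tissues and were tested.

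The animals were males of the Diversity Outbred stock. Each carries its own mix of founder genomes, so no animal replicates the genotype of another. They were 6 weeks old when they were placed in single housing on the control diet. The high-fat group then ate D12492, with 60 kcal % fat, for 14 weeks, and the control group stayed on D12450J, with 10 kcal % fat. RNA from tissue collected at necropsy was sequenced as stranded total RNA. No source used here gives the time of day of each necropsy.

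The 2 organs of a mouse carry the same inherited alleles and are reached by the same circulating hormones, nutrients and body temperature. Cells of every organ hold a circadian clock, in which the activators ARNTL and CLOCK drive their own repressors and output genes such as Dbp, and feeding time, body temperature and glucocorticoids set its phase. Heat shock genes are driven together by HSF1, and body temperature and feeding act on them in liver and muscle. None of these inputs was measured here.

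The promoters of the clock and heat shock genes are shown first because these lists held several of the covarying genes that have no near copy elsewhere in the genome. Windows of 300 bases, from 250 before to 50 after the start site, came from RefSeq on GRCm38.p6. Of the 11 heat shock genes tested, 8 had a window (none for Hsp90aa1, Hsp90ab1 and Hspa8). GAANNTTC, a core of the heat shock element, was found in a window of 7 of these 8 genes, against 9.04% of all 27025 genes with a window, and TTCNNGAA in 4 of them, against 9.6%. Counted by window, GAANNTTC was in 8 of their 11 windows, against 7.86% of all 32851 windows, and TTCNNGAA in 5, against 8.52%. Hspd1 and Hspe1 are read in opposite directions from the same promoter stretch, so the sites they share count for both. Both were searched on both strands, where each is its own reverse complement, and matches of the 2 may overlap. No window of Dnajb1, which had the largest rho of the list in each diet, held either. Bag3, Hspb1, Hspd1 and Hspe1 held GAANNTTC, but their covariation was called in neither diet by the test given below. Of the 11 clock genes, 9 had a window. The E-box CACGTG was found in Tef alone, against 8.09% of all genes with a window, and the D-box TTATGTAA in none, against 1.11%. The stretches below are 60 bases long, 5′ to 3′ on the strand of the gene, and the capitals mark the motif named with each.
Hsph1 (chr5:149636336-149636395, minus strand, TTCNNGAA): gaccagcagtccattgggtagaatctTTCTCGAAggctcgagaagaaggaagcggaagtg
Hspa1b (chr17:34959309-34959368, minus strand, GAANNTTC): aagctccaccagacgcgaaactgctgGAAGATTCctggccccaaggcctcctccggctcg
Chordc1 (chr9:18292237-18292296, plus strand, GAANNTTC): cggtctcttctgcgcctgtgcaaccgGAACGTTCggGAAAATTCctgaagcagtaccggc
Tef (chr15:81802520-81802579, plus strand, CACGTG): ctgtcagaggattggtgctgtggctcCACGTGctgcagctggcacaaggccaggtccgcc

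The tissues matched their labels in the mice kept. Alb, the plasma albumin made by hepatocytes, had median scaled TPM of 27152 in liver and 2.29 in muscle of high-fat mice, and 31679 in liver and 3.72 in muscle of control mice. Ckm, the muscle creatine kinase, had medians of 26012 TPM in muscle of high-fat mice and 28119 TPM in muscle of control mice. Its liver medians were 0 TPM in high-fat mice and 0.027 TPM in control mice. Single livers reached 1589 TPM in high-fat mice and 876 TPM in control mice. The 16 hepatocyte markers summed to at most 8817 TPM in any muscle of high-fat mice and 2720 TPM in any muscle of control mice. The 17 muscle markers summed to at most 9055 TPM in any liver of high-fat mice and 4745 TPM in any liver of control mice. Leaving out the 4 high-fat and 3 control mice with over 1000 TPM of the other tissue's markers left 453 genes called in high-fat mice and 367 in control mice. In mouse 80 the library labelled liver held 117638 TPM of muscle markers and 393.7 TPM of hepatocyte markers, and the library labelled muscle held 109625 TPM of hepatocyte markers and 700.2 TPM of muscle markers. With that mouse kept, 373 genes were called in high-fat mice. The files hold TPM only, so the read depth behind each value is unknown. The scale factor, the ribosomal RNA-like share and the number of genes detected were each correlated between liver and muscle of the same mouse, in 6 tests over both diets. No correlation passed (two-sided permutation tests, Spearman rho between -0.05 and 0.17, every adjusted p 0.984, and Pearson r between -0.11 and 0.21, adjusted p of at least 0.484).

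More genes moved together in liver and muscle of the same mouse than in randomly paired mice, and nearly all of them moved in the same direction. The covariation of a gene was measured as Spearman's rho between its liver and muscle levels across the mice of 1 diet, and a gene was called where its two-sided permutation p over 100000 random pairings, adjusted by Benjamini-Hochberg over all 5934 genes, was under 0.05. In high-fat mice 463 genes were called positive (7.8% of those tested) and 11 negative (0.185%). In control mice 356 were called positive (6%) and 9 negative (0.152%). The weakest rho called was 0.37 in either diet. Positive in both diets were 245 genes (4.13%), and negative in both were 3 (0.0506%). In 100 random pairings of the mice within a diet no gene was called positive, with either diet. The median number called with either sign was 0 in each diet.

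On scaled TPM the distribution of rho was shifted upwards, though its lower quartile stayed below 0 (-0.01 in high-fat mice, -0.04 in control mice). Its median was 0.09 in high-fat mice, where the medians of 100 random pairings lay between -0.02 and 0.02, and 0.06 in control mice, where they lay between -0.03 and 0.03. Both had p = 0.0099, the smallest that 100 permutations can give. The rho was above 0 for 72.9% of genes in high-fat mice and 65.2% in control mice. These counts depended on the scaling of the libraries. On TPM as deposited, 140 genes were called in high-fat mice (2.36%), 2 of them negative, and 215 in control mice (3.62%), all positive. Of these calls, 95.7% in high-fat mice and 81.4% in control mice were also made on scaled TPM. The median rho on TPM as deposited was 0.02 in high-fat mice (permutation p = 0.772) and 0.12 in control mice (p = 0.129), neither outside the random pairings. Under each of the other alternatives with same-mouse pairs, the median had the smallest p of 0.0099.

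**Figure D1:**
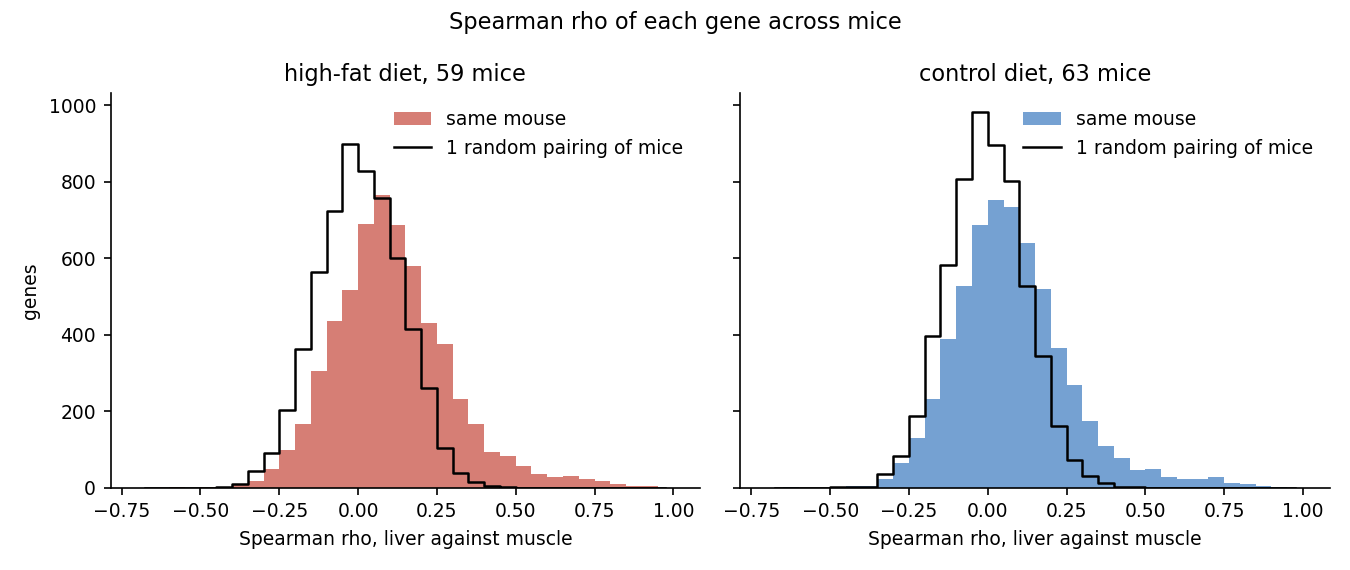
Number of genes (vertical axis) by Spearman rho between liver and muscle (horizontal axis), in high-fat mice (left) and control mice (right), for liver and muscle of the same mouse (bars) and for 1 random pairing of the mice (line). The bars reach well above 0.37, the weakest rho called, where the line holds few genes.

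Genes positive in one diet were mostly called positive in the other as well, which was made of different animals. Of the 463 genes positive in high-fat mice, 245 (52.9%) were called positive in control mice as well, 448 had a rho above 0 there, and their median rho there was 0.39, against 0.06 for all genes tested. Of the 356 genes positive in control mice, the same 245 are 68.8%, 351 had a rho above 0 in high-fat mice, and their median rho there was 0.49, against 0.09 for all genes. Of the negative genes, 3 of 11 from high-fat mice (27.3%) were called negative in control mice, and 3 of 9 from control mice (33.3%) in high-fat mice. The difference of rho between the diets was tested by permuting the diet labels over mice. No gene passed (0% of 5934), and 299 (5.04%) had an unadjusted p under 0.05. The smallest adjusted p was 0.534. It belonged to Nfil3, a repressor of D-box genes, with a rho of -0.12 in high-fat mice and 0.51 in control mice, and to Mrps21, a mitochondrial ribosomal protein. A difference as wide as that of Nfil3 therefore did not pass with this number of mice and genes, and the test does not show that the diets acted alike.

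**Figure D2:**
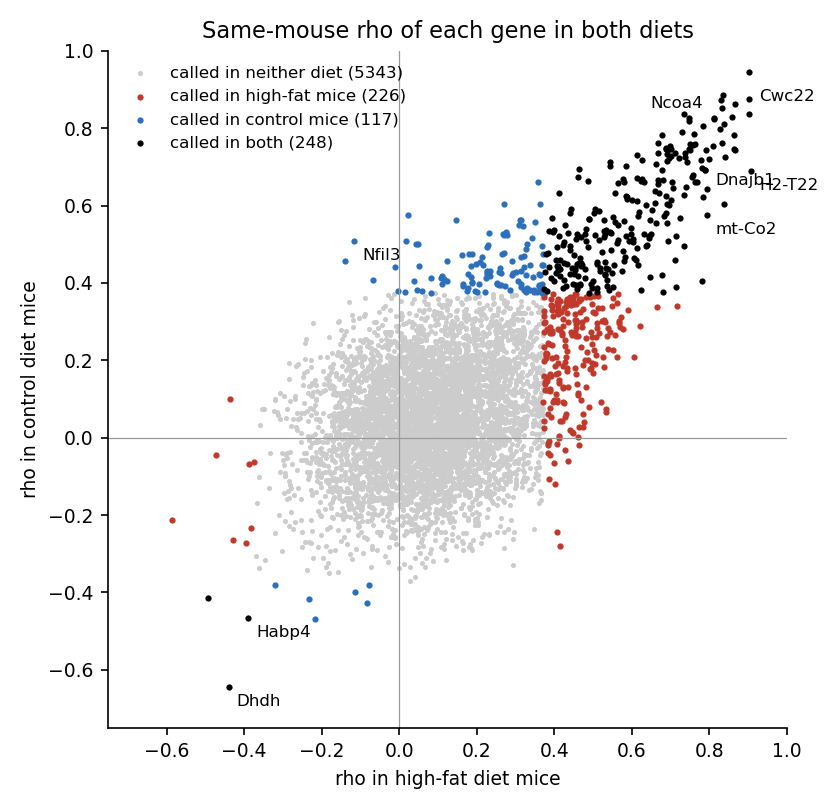
The rho of each of the 5934 genes in high-fat mice (horizontal axis) and in control mice (vertical axis), coloured by the diet in which it was called, with 8 genes labelled. The 248 genes called in both diets lie at the upper right, apart from the 3 negative ones at the lower left.

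Liver and muscle could be matched to each other from these genes. The liver of each mouse was correlated with every muscle of the same diet over the 200 genes with the largest rho in the mice of the other diet, with the log2(scaled TPM + 1) of each gene standardised across mice. The muscle with the same number was the best match for 59 of 59 high-fat livers and 62 of 63 control livers. The median r with the muscle of the same mouse was 0.67 in high-fat mice and 0.67 in control mice, and with the muscles of other mice -0.01 in both. The lowest r of a matched liver was 0.37 in high-fat mice and 0.24 in control mice. The exception was mouse 45, whose liver had an r of -0.06 with its own muscle and at most 0.20, with mouse 14. Its liver is 1 of 6 among these mice whose label carries a second number. The others matched their own muscle best, with r of 0.66 and 0.61 in control mice 33 and 49. In high-fat mice 83, 92 and 94 it was 0.62, 0.40 and 0.58. Without mouse 45, 406 genes were called in control mice (397 positive, 9 negative).

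**Figure D3:**
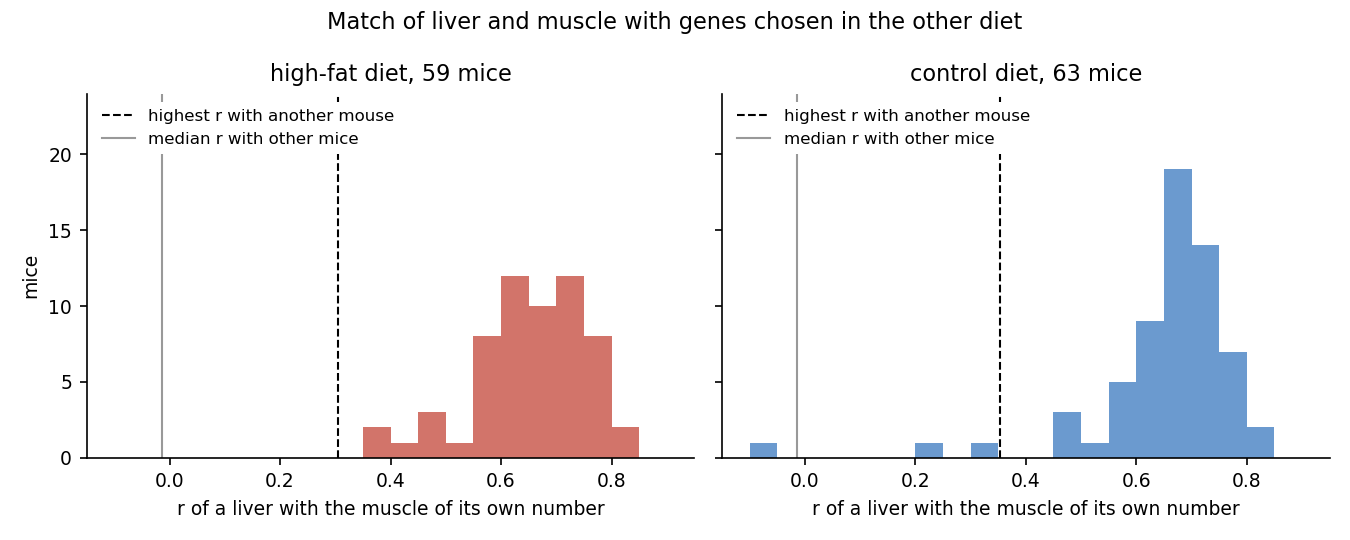
Number of mice (vertical axis) by the correlation r of each liver with the muscle of the same number (horizontal axis), in high-fat mice (left) and control mice (right). The dashed line is the highest r of any liver with the muscle of another mouse, and the grey line the median of those r. All high-fat mice lie to the right of the dashed line, and 3 control mice lie to its left.

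Among transcripts with known strain variants, all 4 genes listed covaried in both diets, against 7.8% of all genes in high-fat mice and 6% in control mice. These 4 were listed with earlier results of these data known, so the count is no test of strain variants as a group. Cwc22 (ENSMUSG00000027014), a splicing factor that joins the spliceosome and helps load the exon junction complex, separated the mice into a low and a high class. In high-fat mice, liver levels had a lowest, median and highest value of 3.44, 135.4 and 274 TPM, and muscle levels 5.92, 176 and 378 TPM. In control mice, liver levels were 3.46, 134.5 and 322 TPM, and muscle levels 7.45, 151 and 432 TPM. The same 14 high-fat mice were low in both tissues, at 3.44 to 8.02 TPM in liver and 5.92 to 22.4 TPM in muscle. The other 45 had 78.1 to 274 TPM in liver and 96.3 to 378 TPM in muscle, so the classes did not overlap. Within the low class rho was 0.64 (permutation p = 0.0168) and within the high class 0.79 (p = 1e-05, the smallest the permutations can give). Of the control mice, 10 were low in both tissues, and mouse 25 was apart, with 44 TPM in liver and 8.18 TPM in muscle. Of the 31-base words of its longest annotated transcript, 44.1% also occur in transcripts of other genes, so its reads may be split among copies.

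The other 3 listed transcripts graded without classes. Alad (ENSMUSG00000028393), an early enzyme of heme synthesis, had lowest, median and highest levels of 57.4, 123.4 and 234 TPM in liver and 19.1, 38.7 and 72 TPM in muscle of high-fat mice. Control mice had levels of 60.9, 106.96 and 191 TPM in liver and 12.9, 32.1 and 66 TPM in muscle. Its rho was 0.68 in high-fat mice (adjusted p = 0.000503, permutation) and 0.69 in control mice (adjusted p = 0.000341, permutation), which are the smallest adjusted p in each diet. The control mouse with the highest liver level, mouse 32, also had the highest muscle level. Pearson's r of log2(scaled TPM + 1) was 0.69 in high-fat mice and 0.73 in control mice, and 0.68 in high-fat mice and 0.69 in control mice without the 2 mice farthest from the median in liver. Glo1, which clears methylglyoxal, had a rho of 0.62 in high-fat mice and 0.57 in control mice. Nnt, the mitochondrial transhydrogenase, had 0.53 in high-fat mice and 0.45 in control mice, and 96.4% of its 31-base words are shared with other annotated transcripts. On TPM as deposited, Alad (0.28), Glo1 (0.38) and Nnt (0.11) were not called in high-fat mice.

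Of the 11 clock genes tested, 5 were called positive in high-fat mice and 5 in control mice, and 3 in both, against 7.8% of all genes in high-fat mice and 6% in control mice. The median rho of the 11 was 0.33 in high-fat mice and 0.34 in control mice, against 0.09 in high-fat mice and 0.06 in control mice over all genes. Arntl (ENSMUSG00000055116), the activator also known as Bmal1, had lowest, median and highest levels of 0.722, 5.04 and 13.5 TPM in liver and 3.31, 8.81 and 24.6 TPM in muscle of high-fat mice. In control mice it had 0.314, 8.13 and 13.8 TPM in liver and 3.18, 12.5 and 23.7 TPM in muscle. High livers went with high muscles: mouse 99 had the lowest Arntl of the high-fat mice in both tissues, and another high-fat mouse had the highest in both. The rho was 0.76 in high-fat mice and 0.78 in control mice (adjusted p = 0.000503 in high-fat mice and 0.000341 in control mice, permutation), and r was 0.77 in high-fat mice and 0.81 in control mice, or 0.74 in high-fat mice and 0.76 in control mice without the 2 farthest mice.

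Dbp (ENSMUSG00000059824), an output transcription factor of the clock, had lowest, median and highest levels of 0.353, 14.3 and 54 TPM in liver and 5.54, 23.9 and 69.4 TPM in muscle of high-fat mice. In control mice liver levels lay between near 0 and 61.7 TPM with a median of 3.35 TPM, and muscle levels between 3.08 and 59.7 TPM with a median of 17.5 TPM. Some animals at one end for Arntl were at the other end for Dbp. The high-fat mouse with the highest Arntl had the lowest liver Dbp of that diet and ranked 2 of 59 from the bottom in muscle, and mouse 99 had the highest liver Dbp but ranked 41 of 59 in muscle. Control mouse 71, with the lowest liver Dbp of its diet, ranked 42 of 63 in muscle. In control mouse 43 Dbp was 61.7 TPM in liver and 56.7 TPM in muscle, while Arntl was 0.314 TPM in liver and 3.67 TPM in muscle. The rho of Dbp between the tissues was 0.79 in high-fat mice and 0.74 in control mice.

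The opposite course of Arntl and Dbp also held across organs. Liver Arntl against muscle Dbp of the same mouse had a rho of -0.73 in high-fat mice and -0.76 in control mice, and liver Dbp against muscle Arntl had -0.71 in high-fat mice and -0.76 in control mice. Within liver the same pair had -0.93 in high-fat mice and -0.87 in control mice, and within muscle -0.62 in high-fat mice and -0.72 in control mice. These pairs were read after the results of single genes were known and are given without a test. Nr1d2, a repressor of Arntl, had a rho of 0.55 in high-fat mice and 0.57 in control mice. Clock had 0.47 in high-fat mice and 0.33 in control mice and Tef, a relative of Dbp, 0.51 in high-fat mice and 0.30 in control mice, and both were called in high-fat mice. Cry2, a repressor of the activators, had 0.26 in high-fat mice and 0.43 in control mice and was called in control mice. Nr1d1, at 0.33 in high-fat mice and 0.34 in control mice, was called in neither. In control mice Nr1d1 gained a call under 5 of 14 alternatives, among them TPM as deposited (0.43). Rora had -0.12 in high-fat mice and -0.10 in control mice. Per1, a light- and glucocorticoid-responsive repressor, was below the expression minimum. On TPM as deposited Arntl (0.55 in high-fat mice, 0.72 in control mice) and Dbp (0.73 in high-fat mice, 0.73 in control mice) were called in both diets, while Nr1d2 (0.22) and Clock (0.14) were not called in high-fat mice.

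Of 11 heat shock genes, 6 were called positive in high-fat mice and 4 in control mice, and the same 4 were called in both, against 7.8% of all genes in high-fat mice and 6% in control mice. The median rho of the list was 0.45 in high-fat mice and 0.37 in control mice. Dnajb1 (ENSMUSG00000005483), a J-domain partner of the inducible chaperones, had lowest, median and highest levels of 6.9, 11.7 and 33.3 TPM in liver and 4.26, 7.15 and 25 TPM in muscle of high-fat mice. In control mice it had 5.74, 11 and 33.5 TPM in liver and 1.61, 6.41 and 70.2 TPM in muscle. Its rho was 0.78 in high-fat mice and 0.62 in control mice, and r was 0.85 in high-fat mice and 0.67 in control mice, or 0.85 in high-fat mice and 0.60 in control mice without the 2 farthest mice. Of its 31-base words 0.441% are shared.

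The chaperones acting with it followed. Hsph1, an exchange factor for them, had a rho of 0.53 in high-fat mice and 0.42 in control mice. Hspa1b, the inducible chaperone itself, had 0.48 in high-fat mice and 0.51 in control mice, and Hsp90aa1, the inducible cytosolic partner of many kinases and receptors, 0.54 in high-fat mice and 0.44 in control mice. Control mouse 33 carried the highest levels of 3 of these transcripts in both tissues: Dnajb1 at 33.5 TPM in liver and 70.2 TPM in muscle, Hspa1b at 75.1 TPM in liver and 270 TPM in muscle, and Hsp90aa1 at 338 TPM in liver and 381 TPM in muscle. Hspa8 (0.45 in high-fat mice, 0.37 in control mice) and Chordc1 (0.49 in high-fat mice, 0.37 in control mice) were called in high-fat mice, and the mitochondrial chaperone Hspd1 (0.30 in high-fat mice, 0.13 in control mice) in neither. On TPM as deposited Dnajb1 (0.50 in high-fat mice, 0.43 in control mice) was called in both diets. There, Hsph1 (0.30), Hspa1b (0.36) and Hsp90aa1 (0.14) were not called in high-fat mice, nor Hsph1 (0.35) and Hsp90aa1 (0.31) in control mice.

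**Figure D4:**
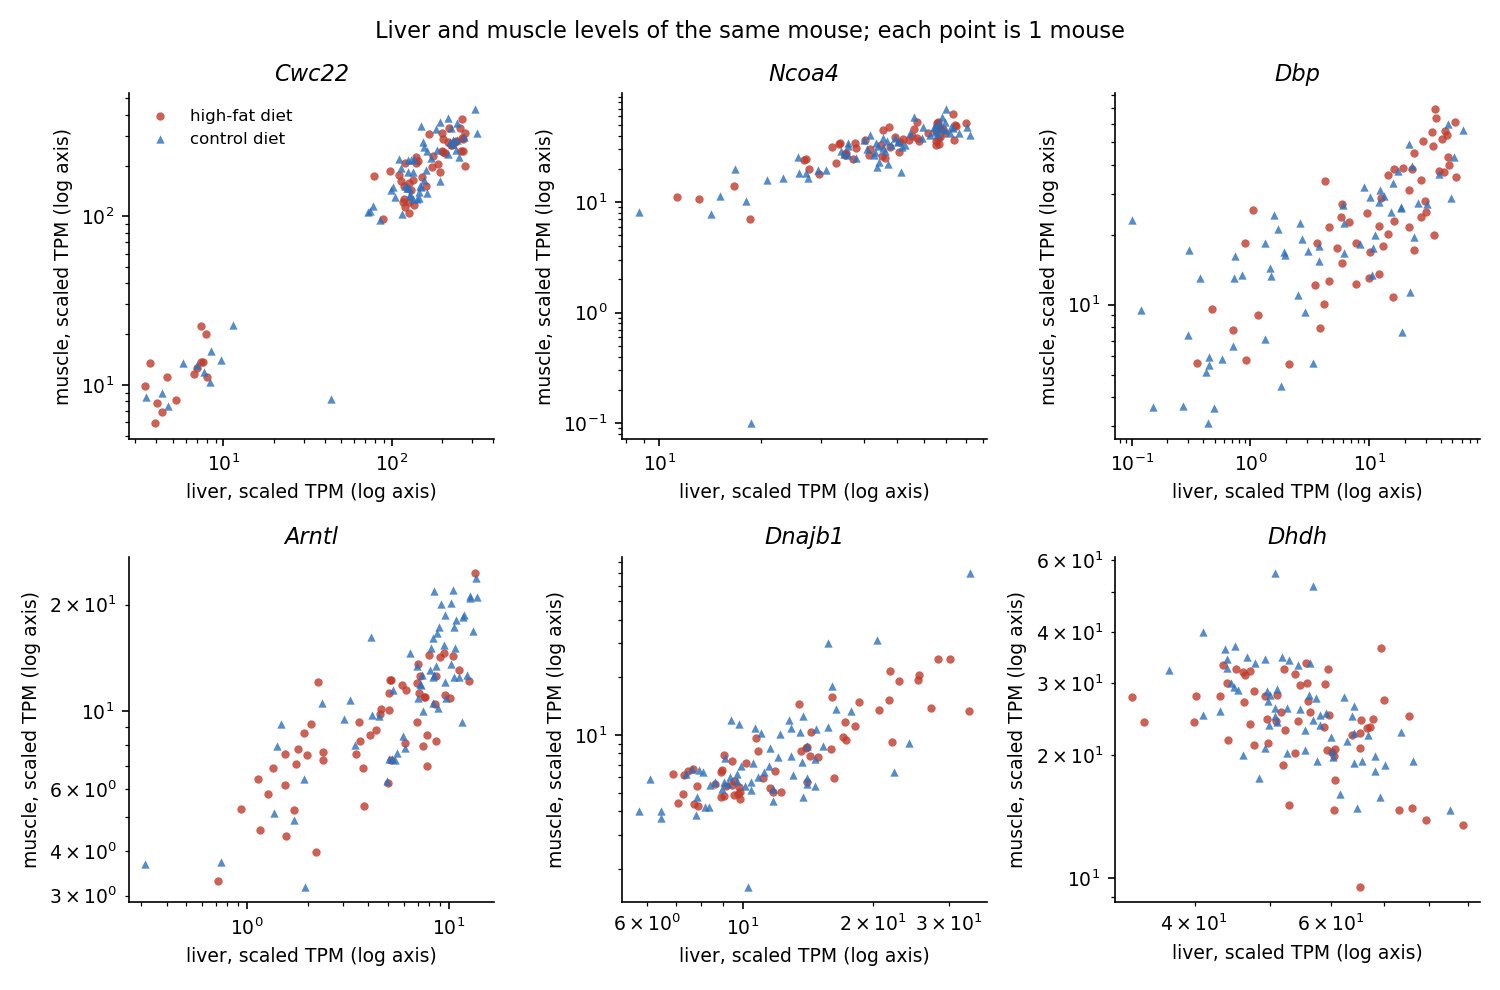
Liver level (horizontal axis) against muscle level (vertical axis) of 6 genes in scaled TPM, both on log axes, with 1 point per mouse (high-fat circles, control triangles) and values under 0.1 TPM drawn at 0.1. Cwc22 falls into a low and a high class, Ncoa4, Dbp, Arntl and Dnajb1 rise together in both tissues, and Dhdh is lower in muscle where it is higher in liver.

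Other stress programmes covaried in part. Of 8 glucocorticoid and stress targets, 4 were called in high-fat mice and 2 in control mice, against 7.8% of all genes in high-fat mice and 6% in control mice. Gadd45g, a growth arrest gene, had a rho of 0.48 in high-fat mice and 0.54 in control mice, and Errfi1, a feedback inhibitor of the epidermal growth factor receptor, 0.44 in high-fat mice and 0.53 in control mice. Fkbp5, a glucocorticoid-induced co-chaperone of its receptor, had 0.41 in high-fat mice and 0.36 in control mice and Klf9 0.41 in high-fat mice and 0.14 in control mice, and both were called in high-fat mice. The other members of the list were called in neither diet. They were Tsc22d3 (0.16 in high-fat mice, 0.18 in control mice), Sgk1 (-0.10 in high-fat mice, 0.14 in control mice), Mt1 (0.32 in high-fat mice, 0.28 in control mice) and Angptl4 (0.10 in high-fat mice, 0.12 in control mice). Of 19 endoplasmic reticulum stress genes, 3 were called in high-fat mice and 5 in control mice. Hspa5, the main chaperone of that compartment, had 0.47 in high-fat mice and 0.45 in control mice and Manf, a secreted stress factor, 0.47 in high-fat mice and 0.45 in control mice, while Hsp90b1 had 0.36 in high-fat mice and 0.66 in control mice and Creld2 0.32 in high-fat mice and 0.55 in control mice and were called in control mice. The diet difference of none of these genes passed. In lists as short as the next ones, a count of 0 or 1 lies near the share of all genes. Of 7 immediate early genes none was called, and of 6 interferon response genes 1 was called, in control mice: Bst2, an antiviral membrane protein, at 0.37 in high-fat mice and 0.45 in control mice. Irf7 was below the expression minimum. With TPM as deposited, Errfi1 (0.38), Fkbp5 (0.38), Klf9 (0.13), Hspa5 (0.25) and Manf (0.34) were not called in high-fat mice, nor Errfi1 (0.31), Hspa5 (0.33) and Bst2 (0.28) in control mice.

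Of 19 glutathione and NRF2 target genes, 7 were called in high-fat mice, 8 in control mice and 5 in both, against 7.8% of all genes in high-fat mice and 6% in control mice and 4.13% in both. The 7 in high-fat mice include the related genes Gstm1, Gstm2, Gstm5 and Gstm7, each counted on its own. Gstm7 (ENSMUSG00000004035), a glutathione transferase, had lowest, median and highest levels of 11.4, 41.9 and 165 TPM in liver and 0.694, 4.28 and 17.9 TPM in muscle of high-fat mice. In control mice it had 24.9, 63.6 and 182 TPM in liver and 0.737, 6.25 and 18.1 TPM in muscle. Its rho was 0.78 in high-fat mice and 0.70 in control mice. Its neighbours on the chromosome were called too, Gstm2 with 0.65 in high-fat mice and 0.56 in control mice and Gstm1 with 0.52 in high-fat mice and 0.44 in control mice, and the same high-fat mouse had the lowest liver level of both. Gclm, the regulatory subunit of glutathione synthesis, had 0.45 in high-fat mice and 0.43 in control mice, and Txnrd1, the cytosolic thioredoxin reductase, 0.53 in high-fat mice and 0.53 in control mice. Among the members called in neither diet were Gclc (0.10 in high-fat mice, 0.02 in control mice), Srxn1 (0.07 in high-fat mice, 0.21 in control mice), Cat (-0.05 in high-fat mice, 0.10 in control mice) and Gpx1 (-0.13 in high-fat mice, -0.17 in control mice). On TPM as deposited Txnrd1 (0.21 in high-fat mice, 0.23 in control mice) and Gstm1 (0.19 in high-fat mice, 0.24 in control mice) were called in neither diet, and Gstm2 (0.37) was not called in control mice.

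Heme and iron genes held a few strong members among many near 0. Ncoa4 (ENSMUSG00000056234), the receptor that carries ferritin to autophagosomes and so frees its iron, had lowest, median and highest levels of 11.3, 51.2 and 79.8 TPM in liver and 7.05, 36.1 and 63 TPM in muscle of high-fat mice. In control mice it had 8.7, 46.1 and 82.2 TPM in liver, and in muscle a median of 33.2 and a highest level of 69.3 TPM, with mouse 45 near 0. The rho of Ncoa4 was 0.83 in high-fat mice and 0.87 in control mice, r was 0.89 in high-fat mice and 0.79 in control mice, and none of its 31-base words is shared. Hfe, a regulator of iron sensing, had 0.49 in high-fat mice and 0.40 in control mice. The ferritin chains Fth1 (0.01 in high-fat mice, 0.04 in control mice) and Ftl1 (-0.10 in high-fat mice, -0.23 in control mice) and the transferrin receptor Tfrc (-0.10 in high-fat mice, 0.13 in control mice) were not called. Ncoa4 and Hfe were the 2 of 9 iron genes called in either diet, and both were called in both, against 4.13% of all genes. With deposited TPM, Ncoa4 (0.45 in high-fat mice, 0.57 in control mice) was called in both diets and Hfe (0.29 in high-fat mice, 0.11 in control mice) in neither. Among the heme synthesis genes, Alad was called in both diets, and Uros, a later enzyme of the pathway, was called in high-fat mice (0.51 in high-fat mice, 0.19 in control mice), but not there on TPM as deposited (0.21).

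Of 12 listed histocompatibility genes, which include partners such as B2m, 3 were called in high-fat mice and 6 in control mice, against 7.8% of all genes in high-fat mice and 6% in control mice. H2-T22, a nonclassical class I molecule, had a rho of 0.91 in high-fat mice and 0.69 in control mice, and H2-Eb1, a class II beta chain, 0.47 in high-fat mice and 0.69 in control mice. H2-Eb1 reached from 0 to 68.5 TPM in liver and 0 to 215 TPM in muscle of high-fat mice, and from 0 to 50.8 TPM in liver and 0 to 180 TPM in muscle of control mice. H2-K1 had 0.44 in high-fat mice and 0.49 in control mice. Unscaled, H2-K1 (0.39 in high-fat mice, 0.37 in control mice) was called in neither diet, and H2-Eb1 (0.35) was not called in high-fat mice. The shared partner B2m (0.03 in high-fat mice, 0.00 in control mice) was not called. H2 genes are highly variable between mouse strains and resemble one another, and 51.8% of the 31-base words of H2-T22 are shared.

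Of 5 erythrocyte markers tested, 3 were called in both diets, against 4.13% of all genes, and all were globins: Hba-a2 (0.69 in high-fat mice, 0.55 in control mice), Hbb-bs (0.41 in high-fat mice, 0.44 in control mice) and Hbb-bt (0.49 in high-fat mice, 0.57 in control mice). The same high-fat mouse had the highest liver level of each of the 3 in its diet, and among control mice mouse 73 did. From unscaled TPM, Hbb-bs (0.24 in high-fat mice, 0.33 in control mice) was called in neither diet, and Hbb-bt (0.31) was not called in high-fat mice. The 10 listed markers summed to 274 to 2029 TPM in liver and 379 to 1761 TPM in muscle of high-fat mice, and to 284 to 2578 TPM in liver and 425 to 2299 TPM in muscle of control mice. In bulk tissue, fewer cells of a type and less RNA per cell cannot be told apart. Alas2, the erythroid enzyme that starts heme synthesis, had 0.16 in high-fat mice and 0.11 in control mice and was not called.

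Few genes of the metabolic lists were called, against 7.8% of all genes in high-fat mice and 6% in control mice, and in lists of about 10 genes a count of 0 lies near those shares. None of 13 fatty acid synthesis genes, 10 cholesterol genes, 9 insulin and glucose genes or 33 nuclear electron transport genes was called in either diet. The median rho of the insulin and glucose list was 0.16 in high-fat mice and 0.13 in control mice, and that of 21 fatty acid oxidation genes 0.16 in high-fat mice and 0.12 in control mice, both above the medians of all genes, 0.09 in high-fat mice and 0.06 in control mice. The medians of the other 3 lists lay between -0.02 and 0.05. Among the fatty acid oxidation genes, Cd36, a fatty acid transporter, was called in high-fat mice (0.38 in high-fat mice, 0.12 in control mice) and Cpt1a, the gatekeeper of mitochondrial import, in control mice (0.29 in high-fat mice, 0.38 in control mice). The call of Cd36 was lost under 8 of 14 alternatives and that of Cpt1a under 7 of 14, among them TPM as deposited, where Cd36 had 0.17 in high-fat mice and Cpt1a 0.23 in control mice. Car3, a carbonic anhydrase abundant in fat, liver and muscle, was called in high-fat mice (0.46 in high-fat mice, 0.12 in control mice). The 10 adipocyte markers summed to 419 to 6885 TPM in muscle of high-fat mice and 733 to 9244 TPM in muscle of control mice, and their part in the result for Car3 was not tested. Of 9 ATF4 targets, Nars, an asparaginyl-tRNA synthetase, was called in high-fat mice (0.47 in high-fat mice, 0.10 in control mice). Neither Car3 (0.17) nor Nars (0.16) was called in high-fat mice on TPM as deposited. None of 9 macrophage, 6 endothelial or 9 matrix genes was called, and no lymphocyte marker reached the expression minimum, nor did Pdk4.

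**Figure D5:**
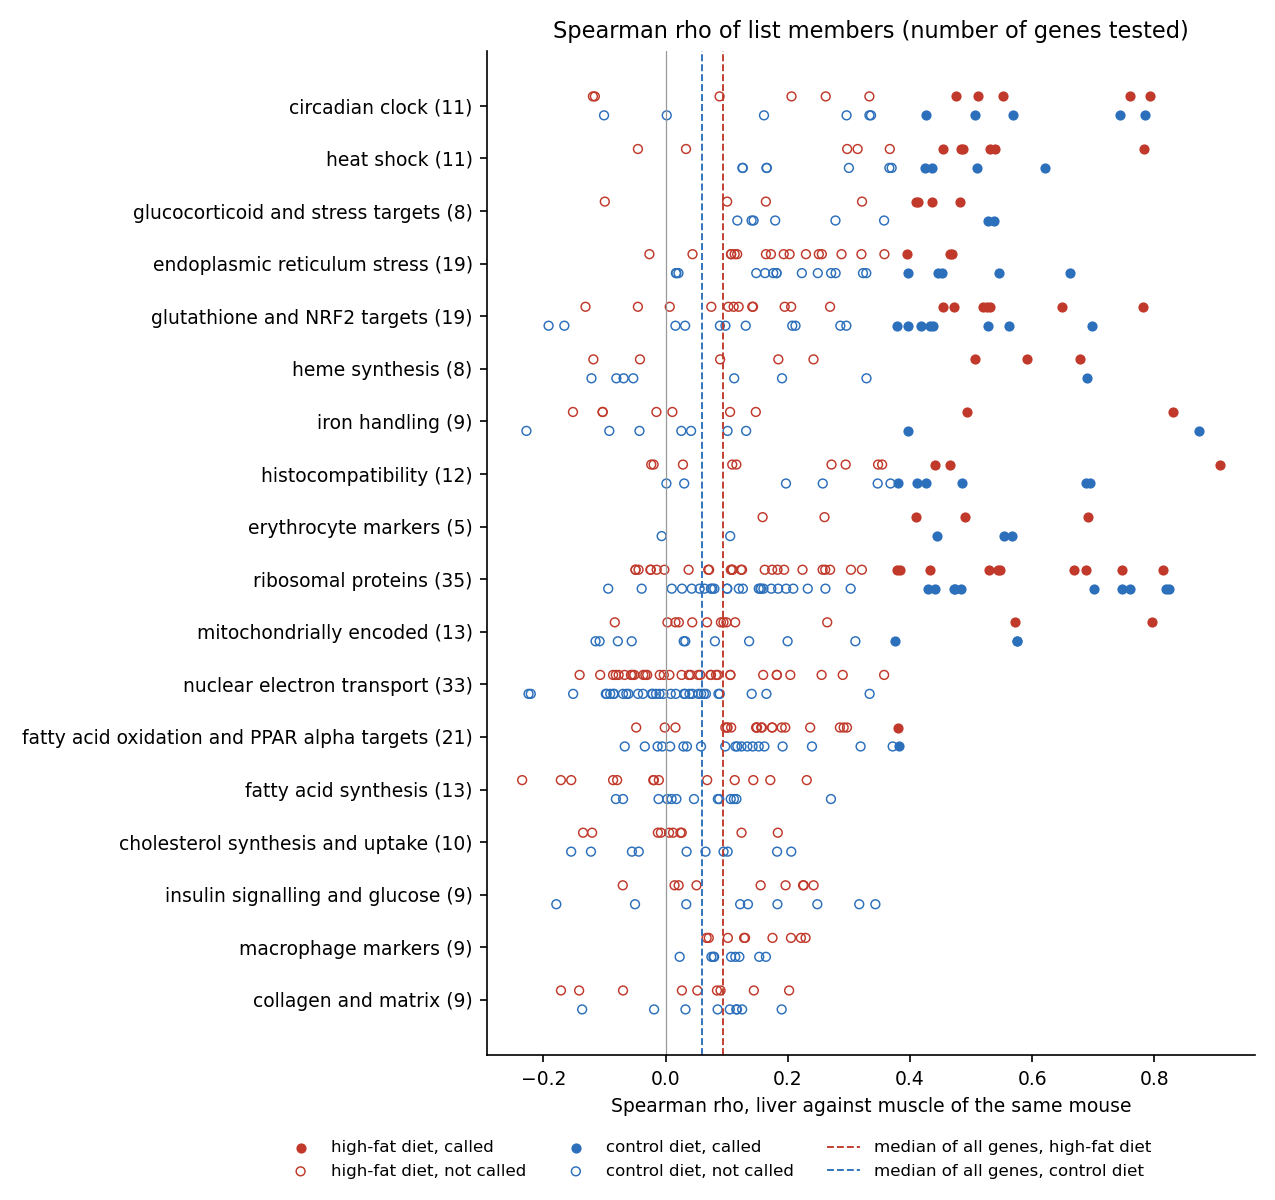
The rho between liver and muscle (horizontal axis) of each tested member of 18 gene lists (rows, with the number tested), in high-fat mice (upper, red) and control mice (lower, blue), filled where called. The dashed lines are the medians of all genes, 0.09 in high-fat mice and 0.06 in control mice. The fatty acid synthesis, cholesterol, macrophage and matrix lists stay below 0.3. The nuclear electron transport, fatty acid oxidation and insulin lists reach at most 0.38. Every other list shown has a member above 0.5.

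Ribosomal protein genes and their pseudogenes supplied many of the strongest values. Of 35 listed ribosomal protein genes, 10 were called in each diet and 7 in both, against 7.8% of all genes in high-fat mice and 6% in control mice and 4.13% in both. Among the 7 were Rpl37 (0.81 in high-fat mice, 0.82 in control mice), Rpl27 (0.75 in high-fat mice, 0.82 in control mice), Rpl23 (0.69 in high-fat mice, 0.75 in control mice) and Rpl19 (0.67 in high-fat mice, 0.76 in control mice). Rps12, outside that list, had 0.87 in high-fat mice and 0.86 in control mice. Its levels fell into classes: the same 23 high-fat mice were low in both tissues, at up to 10.2 TPM in liver and 25 TPM in muscle. The other 36 had 67.7 to 298 TPM in liver and 145.2 to 492 TPM in muscle. Within its low class rho was 0.28 (permutation p = 0.193), and within its high class 0.60 (p = 9e-05). Rpl23 had 22 low and 37 high livers in high-fat mice, with rho of 0.41 and -0.14 within them, while its pooled rho spans both classes. In control mice it had 25 low and 38 high muscles, with rho of 0.14 and 0.11 within them. Rpl12 (0.86 in high-fat mice, 0.83 in control mice), Rpl35 (0.81 in high-fat mice, 0.75 in control mice), Atp5g2, a subunit of ATP synthase (0.78 in high-fat mice, 0.81 in control mice), the retained copy Rpl37rt (0.81 in high-fat mice, 0.83 in control mice) and the pseudogenes Rps12-ps3 (0.84 in high-fat mice, 0.81 in control mice), Tma7-ps (0.82 in high-fat mice, 0.80 in control mice) and Rpl35a-ps2 (0.75 in high-fat mice, 0.76 in control mice) were likewise among the strongest in both diets. Some of these values also span classes. Within its low muscle class Rpl12 had a rho of 0.04 in high-fat mice and -0.05 in control mice. Within its high class it had 0.65 in high-fat mice and 0.73 in control mice. The low liver class of Rpl35a-ps2 had 0.18 in high-fat mice and -0.06 in control mice. That of Tma7-ps, at most 0.0043 TPM in high-fat mice, had 0.14 there and 0.47 in control mice. Their high liver classes had rho between 0.54 and 0.63.

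Among 13 genes encoded by the mitochondrial genome, mt-Co2, a subunit of cytochrome oxidase, separated the mice into classes. In high-fat mice the same 16 animals were low in both tissues, at 2.1 to 135.6 TPM in liver and 22.5 to 203 TPM in muscle, and the other 43 had 538 to 2853 TPM in liver and 1172 to 7031 TPM in muscle. Within the low class rho was 0.29 (permutation p = 0.268), and within the high class 0.51 (p = 0.00059). Of the control mice 10 were low in liver, at up to 31.8 TPM, and 7 of those were low in muscle, while mice 28, 30 and 45 had 837, 740 and 5194 TPM there. The pooled rho was 0.80 in high-fat mice and 0.58 in control mice. The other mitochondrially encoded subunits of the same enzyme were called in control mice alone, mt-Co1 with 0.02 in high-fat mice and 0.38 in control mice and mt-Co3 with 0.02 in high-fat mice and 0.58 in control mice. The control call of mt-Co1 was lost under 8 of 14 alternatives, with r of 0.28 as Pearson's measure, and in high-fat mice the sign of its rho and that of mt-Co3 changed with the setting. The complex I subunit mt-Nd4l, with 0.57 in high-fat mice and 0.31 in control mice, was called in high-fat mice. The diet difference of none of these genes passed. All 31-base words of mt-Co2 also occur in transcripts of other annotated genes.

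Other single genes stood out among those with the largest rho in both diets. Ahcy, which hydrolyses S-adenosylhomocysteine, had lowest, median and highest levels of 60.2, 234 and 747 TPM in liver and 0.712, 10 and 32.7 TPM in muscle of high-fat mice. The rho of Ahcy was 0.76 in high-fat mice and 0.76 in control mice, and high-fat mouse 81 was highest in both tissues. Akr1e1, an aldo-keto reductase, had 0.374, 8.85 and 26.8 TPM in liver and 1.1, 5.41 and 14.1 TPM in muscle of high-fat mice. The rho of Akr1e1 was 0.86 in high-fat mice and 0.78 in control mice, and 1.46% of its 31-base words are shared, against 79.4% for Ahcy.

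A few genes ran the opposite way, higher in the muscle of mice in which they were lower in liver. Dhdh (ENSMUSG00000011382), a dihydrodiol dehydrogenase, had lowest, median and highest levels of 33.2, 54.7 and 88.6 TPM in liver and 9.52, 24.4 and 36.5 TPM in muscle of high-fat mice. In control mice it had 37.1, 54.7 and 85.3 TPM in liver and 14.7, 25.1 and 55.8 TPM in muscle. Mouse 69, highest in liver among the control mice, was the lowest in muscle, and mouse 78, highest in liver among the high-fat mice, ranked 2 of 59 from the bottom in muscle. The rho of Dhdh was -0.44 in high-fat mice (adjusted p = 0.00903, permutation) and -0.64 in control mice (adjusted p = 0.000341, permutation). Habp4, an RNA-binding protein, had -0.39 in high-fat mice and -0.47 in control mice, and the predicted gene Gm14326, named because it is the third such gene, -0.49 in high-fat mice and -0.41 in control mice. Neither Dhdh (-0.28 in high-fat mice, -0.26 in control mice) nor Habp4 (-0.21 in high-fat mice, -0.19 in control mice) was called on TPM as deposited.

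The 245 genes positive in both diets differed from all genes tested in annotation, shared sequence, position and spread. The position measure uses the calls themselves and the spread uses the levels that gave rho, so neither is independent of rho. Annotated pseudogenes made up 24.9% of them, against 2.39% of all genes tested. At least 50% of the 31-base words were shared with transcripts of other genes for 45.5% of them, against 8.64% of all, and 43 (17.6%) shared none, against 41% of all. Among those 43 were Arntl, Dbp, Hsph1, Alad, Ncoa4, Txnrd1, Manf, Gadd45g, Errfi1 and the neighbouring paraoxonase genes Pon2 and Pon3. A neighbouring tested gene was positive in both diets for 20.1% of them, and for 7.14% of the other genes tested. The longest run held 11 adjacent tested genes, including the zinc finger genes Zfp968, Zfp966, Zfp973 and Zfp970, and another was the run of Gstm7, Gstm2 and Gstm1. Their levels also varied more among mice: the median SD of log2(scaled TPM + 1) was 0.68 in liver and 0.65 in muscle of high-fat mice, against 0.27 in liver and 0.28 in muscle for all genes tested. That of control mice was 0.67 in liver and 0.70 in muscle, against 0.27 in liver and 0.31 in muscle for all genes tested.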

How the data were processed

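Liver and muscle gene tables of male mice on 2 diets were read. The authors deposited TPM per gene and library, and each column summed to 1000000, so read counts and depth are unknown. Per the submitters' processing notes, FastQC, Trim Galore 0.4.4 and Bowtie 1.2.2 were used. Which program quantified the reads, on which build and annotation, is not given in the sources used here. RNA came from a stranded total RNA kit, per the labels' protocols. Ribosomal RNA-like transcripts took 1.67% to 72.5% of TPM in liver and 2.32% to 62.1% in muscle.

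TPM were divided, within each tissue, by a trimmed mean of ratios over nuclear protein-coding genes (trims 0.3 and 0.05, values of at least 0.1 TPM). Libraries under 8000 genes (11 high-fat and 10 control livers, 5 high-fat and 1 control muscles) were left out. The libraries nearest that limit had 7913 and 8475 genes in liver and 7942 and 8962 in muscle. The genes nearest the limit of 5 TPM were Ipp, just outside at 4.995 TPM in liver, and Cog5, just inside at 5.003 TPM. Their rho was -0.11 and 0.03 in high-fat mice and 0.04 and -0.14 in control mice. Gene names came from GENCODE M21 for 99.1% of IDs.

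Spearman's rho was tested against a common null of 100000 random pairings, two-sided, with Benjamini-Hochberg adjustment over all genes. This is approximate for the 56 genes with tied values (up to 55.6% of mice). Pearson's r used log2(scaled TPM + 1) and its own permutations. Words of 31 bases of each gene's longest annotated transcript were compared with all transcripts of other genes. The pairing came from the mouse number in the labels, and was checked by the matching of livers to muscles. Liver values of a gene were compared with muscle values within 1 tissue table each, never as levels across tables. The code was tested on simulated data with Python 3.11.15, numpy 2.4.6, pandas 2.3.3, scipy 1.17.1 and matplotlib 3.10.9.

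Rules set beforehand chose 61 genes, predicted genes aside. They took the 15 with the largest smaller rho of the 2 diets and up to 5 negative in both. They also took up to 4 of each list and those of 11 fixed genes that were tested. Further genes, such as other list members, are named too, but their values under the alternatives are not given. Members and lists were chosen with earlier results of these data known. Each diet's p-values measure spread between mice that each carry their own genotype. Alternatives in scaling, filters, measure, covariates and mice are described at the end. The adipose libraries were not used here. Some listed genes are not reported here.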

Additional observations from a re-analysis of the deposited data

Results flagged for a closer look

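Mouse 80 was left out of every comparison. The summed level of the skeletal muscle markers in its liver-labelled library was 117638 scaled TPM, against at most 9055 TPM in any other high-fat liver kept and 4745 TPM in any control liver kept. Its muscle-labelled library held 700.2 TPM of the same markers and 109625 TPM of hepatocyte markers, so both libraries go against their labels. The cause was not tested.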

How the results depend on the processing

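The 61 genes chosen by rule kept their direction in 1683 of 1690 values recomputed under an alternative. Of these, 1567 also kept their side of the threshold, 86 lost it, 43 of them on TPM as deposited, and 30 gained it. The sign changed in high-fat mice for mt-Co1 under median ratio scaling (-0.019), with mouse 80 kept (-0.026), as Pearson's r (-0.050 with either pseudocount) and without mice with other-tissue markers (-0.012), and for mt-Co3 with a stricter library filter (-0.057) and with mouse 80 kept (-0.022), none of them called. TPM as deposited lowered the genes called to 140 (2.36%, against 7.99%) in high-fat mice and 215 (3.62%, against 6.15%) in control mice, and gave a median rho of 0.016 in high-fat mice and 0.12 in control mice, neither past the threshold. The cause was not tested. Requiring a median of at least 1 TPM gave 809 called genes in high-fat mice and 627 in control mice (10475 tested), and at least 20 TPM gave 217 (12.6%) in high-fat mice and 161 (9.32%) in control mice (1728 tested). Among the 2430 genes with no shared 31-base word, an alternative chosen after seeing the data, 4.44% were called in high-fat mice and 2.92% in control mice. Pairing without the replicate block, that is, livers and muscles of different mice at random, gave 0 called genes in either diet and a median rho of -0.00016 in high-fat mice and -0.00174 in control mice. Under the remaining alternatives the counts lay between 342 and 564 in high-fat mice and between 246 and 482 in control mice. The difference between diets had 0 calls under each of the 8 alternatives for which it was recomputed. Livers matched their own muscle in 57 or 59 of 59 high-fat and 61 or 62 of 63 control mice, and without the library filter in 68 of 74 high-fat and 72 of 74 control mice. Values rest on TPM, so precision at low levels is unknown.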
